A study of Mus musculus with 24 samples.

Results

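The 36 genes described here encode the folding machinery of the endoplasmic reticulum (ER) and its stress signalling, and they were picked by name from the 55291 gene names counted in each library. All 36 passed the filter on low counts and were among the 16258 genes tested. They were arranged by role into 9 ER-lumen chaperones and cofactors of the chaperone BiP, 6 calreticulin-calnexin lectins and disulfide isomerases, 2 collagen chaperones, 5 translocon and COPII coat genes, 4 genes of ER-associated degradation, 4 stress sensor genes (with Xbp1 among them) and 6 genes of the ATF4 arm. The first 3 groups together are called the 17 secretory chaperones.

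The libraries came from cultured pulmonary fibroblasts of wild type (WT) and TLR4-/- mice on a C57BL/6 background, each genotype isolated from a pool of 3 to 4 lungs of mice aged 4 to 8 weeks and used at passages 3 to 6. After a night in reduced serum medium, the cells received the saline vehicle PBS alone, the cold-inducible RNA-binding protein CIRP as a recombinant mouse protein (rmCIRP, 1 μg/ml), recombinant mouse TGF-β1 (rmTGF-β1, 2 ng/ml), or both proteins, and were lysed after 24 h. This gave 8 conditions with 3 libraries each, 24 in all, and the labels do not say that the 3 came from separate cultures or animals, so every p-value measures only the spread between these libraries. The study asked whether extracellular CIRP changes fibroblast transcription through TLR4, and whether TGF-β1 matters for that response.

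Proteins bound for secretion, the collagens of fibroblasts among them, enter the ER through the translocon, fold with the help of BiP, GRP94, lectins and disulfide isomerases, and leave in COPII vesicles, while misfolded chains are returned to the cytosol for degradation. When unfolded chains accumulate, the sensors IRE1, PERK and ATF6 start the unfolded protein response. IRE1 splices Xbp1 mRNA, ATF6 is cut to an active factor, and PERK phosphorylates eIF2α, which favours translation of ATF4. ATF6 and XBP1 drive chaperone and degradation genes, whereas ATF4 drives amino acid and stress genes and is also reached by other kinases of eIF2α. Splicing, cleavage and phosphorylation are not seen in counts per gene.

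Promoter elements through which these arms are known to act are printed for the members that carry them, because ERSE and CARE, defined below, were found in different members. RefSeq promoter windows (build GRCm38.p6, 250 bases before to 50 after the gene start) were matched for 31 of the 36 members. Atf6, Fkbp10, Hyou1, Manf and Sec61a1 had no entry. Both strands were searched, and only exact matches were counted. The ER stress response element (ERSE, CCAAT and CCACG with 9 bases between them) was found in 8 of 31 members and in 37 of 27025 genes with a window (0.137%). In the lines below, capitals mark the elements in CCAAT and CCACG, and each line is read 5′ to 3′ on the strand given.
Calr (chr8:84847065-84847103, + strand): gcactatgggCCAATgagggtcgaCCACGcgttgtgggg
Canx (chr11:50325790-50325828, - strand): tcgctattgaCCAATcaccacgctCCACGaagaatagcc
Creld2 (chr15:88819510-88819548, - strand): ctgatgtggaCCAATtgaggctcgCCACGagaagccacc
Dnajc3 (chr14:118937817-118937855, + strand): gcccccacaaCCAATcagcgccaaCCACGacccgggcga
Hsp90b1 (chr10:86705523-86705561, + strand): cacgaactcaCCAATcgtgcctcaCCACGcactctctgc
Hsp90b1 (chr10:86705628-86705666, - strand): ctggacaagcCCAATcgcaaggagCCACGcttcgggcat
Hspa5 (chr2:34772015-34772053, + strand): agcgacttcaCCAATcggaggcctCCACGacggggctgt
Pdia6 (chr12:17266481-17266519, + strand): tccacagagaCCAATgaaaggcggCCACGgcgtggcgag
Syvn1 (chr19:6046522-6046560, + strand): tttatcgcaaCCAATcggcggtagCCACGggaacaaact

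The 8 genes were Hspa5 (BiP), Hsp90b1 (GRP94, with a pair of copies), Dnajc3, Creld2, Calr, Canx, Pdia6 and Syvn1, and 7 of them are secretory chaperones. No ATF4-arm gene had an exact match (0 of 6). The Ddit3 window holds CCAAT and GCACG at the same spacing, read on the opposite strand, which was not counted. The related element ERSE-II, ATTGG and CCACG with 1 base between them, stood in Herpud1 and Dnajb11, against 12 genes in all (0.0444%). Capitals mark ATTGG and CCACG.
Dnajb11 (chr16:22857842-22857872, + strand): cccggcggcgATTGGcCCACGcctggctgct
Herpud1 (chr8:94386367-94386397, + strand): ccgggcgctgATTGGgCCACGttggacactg

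The ATF4 element (CARE, TGATG, any base, then AA) stood in 3 of the 6 ATF4-arm genes, in Herpud1 and in no secretory chaperone with a window (0 of 14), and in 4.51% of all genes. Capitals mark the fixed bases.
Asns (chr6:7693215-7693242, - strand): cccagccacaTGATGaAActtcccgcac
Chac1 (chr2:119351039-119351066, - strand): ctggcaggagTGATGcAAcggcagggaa
Herpud1 (chr8:94386307-94386334, - strand): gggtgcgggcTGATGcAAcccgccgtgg
Trib3 (chr2:152344029-152344056, + strand): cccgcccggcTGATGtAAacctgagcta
The short XBP1 core ACGTG, which can overlap the CCACG of the longer elements, stood in 14 of 31 members (45.2%), with the same share in secretory chaperones (7 of 14) and ATF4-arm genes (3 of 6), and in 21.8% of all genes. A match describes these letters in this window and no more, and a missing exact match does not show that an element is absent.

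Each library held between 29853346 and 39664606 reads on genes, mitochondrial transcripts took 1.32 to 1.64% of them, and the normalization factors lay between 0.970 and 1.03. Tlr4 was not lower in the libraries labelled TLR4-/- (20.9 to 28.1 CPM, counts scaled to the same total of reads in each library) than in WT libraries (18.8 to 23.9 CPM). These are counts over the whole gene and the sources used here do not state which part was deleted, so they do not check the label, and the libraries are called by their label throughout. The third labelled TLR4-/- library given both proteins stood apart. Its gene counts differed from those of the other 2 with a chi-square per degree of freedom of 45.7 and 31.3, against 6.55 between those 2 and a median of 4.71 over the 24 replicate pairs. The third labelled TLR4-/- library given rmTGF-β1 came next (11.9 and 15.6). Comparisons that involve the first of these are given with and without it. It also enters the estimate of spread that all comparisons share, and it was not left out singly from the others.

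All 11 fibroblast markers were found in every condition, summing to 19186 to 25979 CPM over the libraries. Other cells' markers were found as well. The 16 macrophage markers summed to 2831 to 3088 CPM in WT PBS libraries, 2395 to 2508 CPM in WT rmCIRP libraries, and 10773 to 12574 CPM in labelled TLR4-/- PBS libraries, where 15 of the 16 were higher than in WT and 1 was lower. With rmCIRP against PBS in WT cells, 11 of the 16 were lower and 4 higher. Mean Adgre1 was 60.6 CPM with PBS and 119 CPM with rmCIRP, while mean Csf1r was 90.4 and 63.0 CPM. All 4 smooth muscle markers fell with rmCIRP in WT cells, and their sum was 2575 to 2768 CPM with PBS and 1662 to 1800 CPM with rmCIRP. Epithelial markers (7) summed to at most 10.5 CPM, and lymphocyte markers (7) to at most 1.86 CPM, in any library. In bulk RNA, fewer cells of a type and less RNA per cell cannot be told apart, and the part of these cells in the results was not tested.

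Per length of exon, the members covered a wide span of levels. In WT PBS libraries the collagen chaperone Serpinh1 (HSP47) stood highest at 831 CPM per kilobase, followed by the disulfide isomerase and prolyl hydroxylase subunit P4hb (628), the lectin Calr (536), Hspa5 (393) and Pdia3 (370). At the other end were the sensor gene Eif2ak3 (PERK, 5.57 CPM per kilobase), the pseudokinase Trib3 (5.77) and the glutathione-degrading enzyme Chac1 (6.29). Atf4 stood at 135 CPM per kilobase, Xbp1 at 62.5 and Ern1 (IRE1) at 12.3. Between the highest and lowest of the 24 libraries, the ratio of CPM was largest for Trib3 (2.70), Dnajb9 (2.29) and Chac1 (2.27), and it was 1.12 for Sel1l.

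The first question was what rmCIRP did to these genes in WT cells. Hspa5, its cofactors Dnajb9 and Hyou1, the degradation genes Herpud1 and Syvn1, and 4 of 6 ATF4-arm genes rose, while both collagen chaperones fell. Of the 36 members, 17 were higher and 2 lower with rmCIRP than with PBS at an adjusted p under 0.1 (edgeR quasi-likelihood test, Benjamini-Hochberg adjustment over 16258 genes), which is 52.8% against 43.9% of all genes (19.8% higher and 24.1% lower). The members' share was close to that of all genes, and with scaling by library size alone it was below it, 41.7% (12 members higher and 3 lower) against 46.6%. The counts over all genes moved from 3212 higher and 3918 lower to 2637 and 4935. By role, 6 of 9 ER-lumen chaperones were higher (median log2 fold change 0.24), as were 1 of 6 lectins and isomerases (median 0.05), 2 of 5 translocon and COPII genes, 2 of 4 degradation genes, 2 of 4 sensor genes and 4 of 6 ATF4-arm genes (median 0.17). The median over the 17 secretory chaperones was 0.06, over all members 0.11 and over all genes −0.02.

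**Figure D1:**
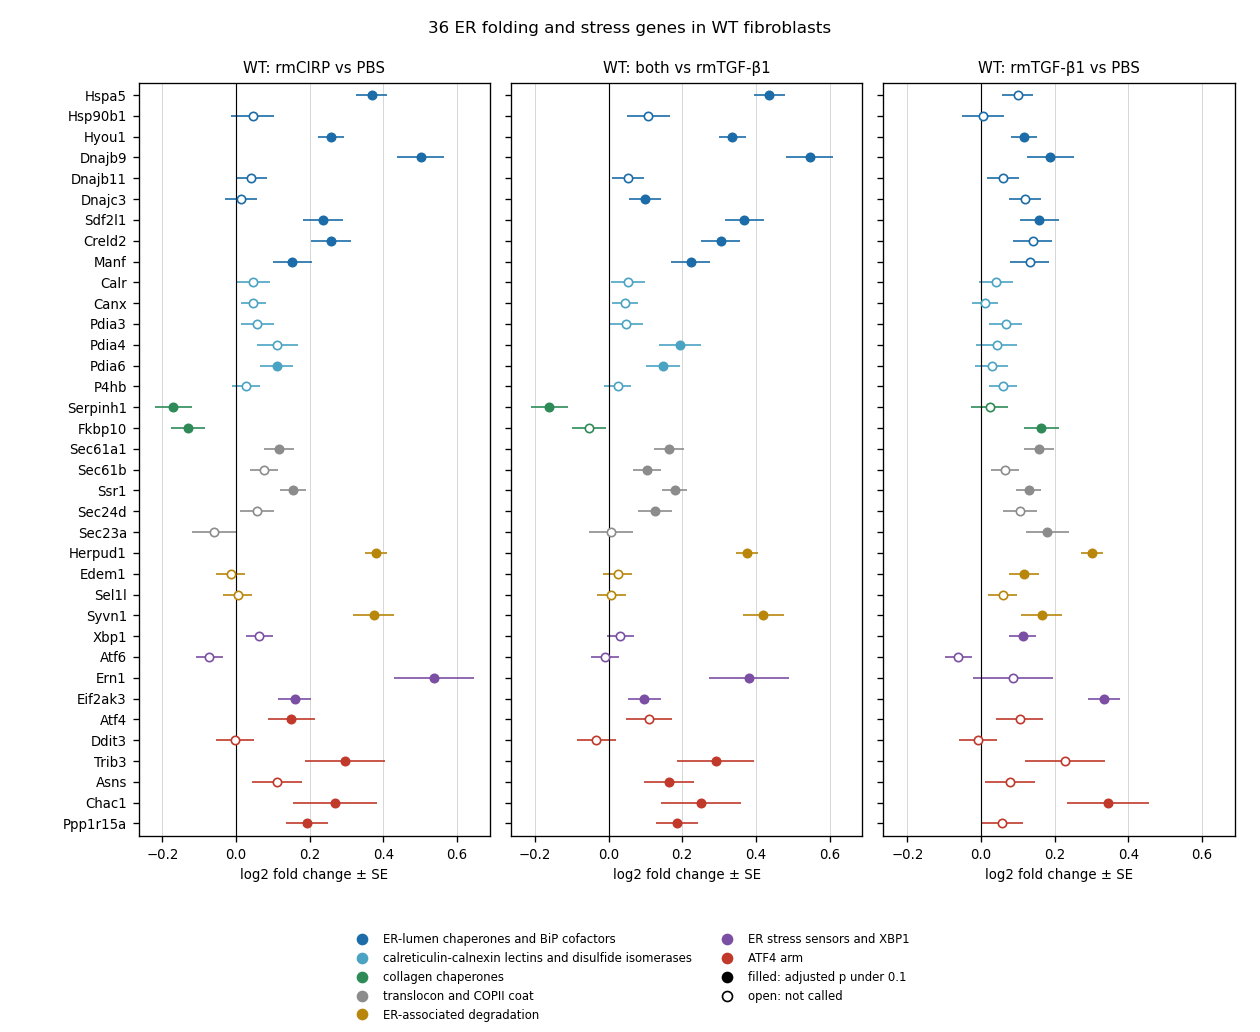
Log2 fold changes of the 36 members (vertical axis, grouped and coloured by role) in WT cells for rmCIRP against PBS, both proteins against rmTGF-β1, and rmTGF-β1 against PBS, with bars for the standard error and 3 libraries per condition. Filled points have an adjusted p under 0.1. Ern1, Dnajb9, Herpud1, Syvn1 and Hspa5 lie farthest to the right in the panel of rmCIRP against PBS (0.37 to 0.54), and Serpinh1 and Fkbp10 lie left of 0.

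Among the ER-lumen chaperones, Hspa5 encodes BiP, which binds unfolded chains and holds the sensors inactive. Its level was 1728, 1641 and 1622 CPM in the WT PBS libraries and 2164, 2043 and 2238 CPM with rmCIRP. The ranges did not overlap, and the log2 fold change was 0.37 ± 0.042 (SE), 1.29-fold, with an adjusted p of 3.67e-07 in the edgeR test. Dnajb9 (ERdj4), a J-domain cofactor that returns BiP to IRE1, went from 106, 108 and 106 CPM to 155, 143 and 155 CPM. Its groups were also apart, by 0.50 ± 0.064 on the log2 scale (adjusted p = 1.91e-06). Smaller rises were seen in Creld2 (0.26), Hyou1 (the nucleotide exchange factor GRP170, 0.26), Sdf2l1 (0.24) and Manf (0.15). Hsp90b1 (GRP94) stood at 0.04 and was not called. Hsp90b1 is also the member whose exons overlap other genes most, 5.38% on the same strand and 10.3% on the opposite one.

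Of the lectins and isomerases, 1 of 6 was called. Calr, which retains unfinished glycoproteins, measured 1600, 1488 and 1543 CPM with PBS and 1571, 1580 and 1628 CPM with rmCIRP, and these ranges overlapped (log2 fold change 0.05). Canx (0.05) and P4hb (0.03) were not called either. Pdia6 was called at 0.11 (edgeR adjusted p = 0.0629), a call lost without the second (0.191) or the third (0.162) WT PBS library or the third rmCIRP library (0.154), and with scaling by library size alone (0.251). The collagen chaperones went the other way. Serpinh1, which clasps the procollagen triple helix, read 2047, 2030 and 2011 CPM with PBS and 1848, 1774 and 1788 CPM with rmCIRP, groups that did not overlap, and fell by 0.17 on the log2 scale (adjusted p = 0.0112). Fkbp10, a prolyl isomerase of collagen folding, fell by 0.13 (adjusted p = 0.0329), with an adjusted p of 0.127 without the first WT PBS library and 0.183 without the third rmCIRP library. In the same libraries 6 of 11 fibroblast markers were lower and 2 higher, and Col1a1, the α1 chain of collagen I, read 7211 ± 143 CPM with PBS and 5585 ± 296 CPM with rmCIRP (SD, n = 3).

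Degradation and sensor genes held 3 of the 5 largest rises. Herpud1, which gathers the degradation complex at the membrane, read 103, 102 and 98.4 CPM with PBS and 133, 130 and 132 CPM with rmCIRP (log2 fold change 0.38 ± 0.03, edgeR adjusted p = 8.95e-10). Syvn1 (HRD1), the ubiquitin ligase of that complex, went from 104, 101 and 91.7 CPM to 126, 125 and 133 CPM (0.37 ± 0.055, adjusted p = 1.35e-05). Neither gene's groups overlapped. Ern1, the gene of the sensor IRE1, had the largest log2 fold change of the members, 0.54 ± 0.11 (adjusted p = 0.000461), from 95.9, 112 and 94.6 CPM to 145, 142 and 151 CPM. Eif2ak3 rose by 0.16 (adjusted p = 0.00745). Total Xbp1 mRNA, spliced and unspliced together, read 196, 211 and 202 CPM with PBS and 218, 204 and 214 CPM with rmCIRP, with overlapping ranges (0.06 ± 0.037, adjusted p = 0.189), and Atf6 stood at −0.07 without a call.

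In the ATF4 arm, Ppp1r15a (GADD34, the phosphatase subunit that reverses eIF2α phosphorylation) rose by 0.19 ± 0.057 (edgeR adjusted p = 0.0101), and its call held in every alternative tried. Trib3 read 13.9, 11.4 and 11.5 CPM with PBS and 15.3, 15.4 and 14.5 CPM with rmCIRP (0.30 ± 0.11, adjusted p = 0.0351). Chac1 read 10.7, 10.1 and 10.1 CPM with PBS and 13.7, 11.96 and 11.6 CPM with rmCIRP (0.27 ± 0.11, adjusted p = 0.0702). For both genes each rmCIRP library lay above each PBS library, yet the calls were fragile. That of Trib3 was lost without the second (adjusted p = 0.12) or the third (0.135) WT PBS library, and that of Chac1 without the second (0.133) or the third (0.162) WT PBS library or the first rmCIRP library (0.267), and with scaling by library size alone (0.12). Atf4 itself was called at 0.15 (adjusted p = 0.0688), and the call was lost without the first or the third library of either group (adjusted p of 0.122 to 0.161) and with scaling by library size alone (0.166). Asns, the asparagine synthetase gene, read 109, 103 and 102 CPM against 112, 112 and 114 CPM, ranges that did not overlap, but it was not called (0.11 ± 0.068, adjusted p = 0.214). Ddit3 (CHOP), the pro-apoptotic factor downstream of ATF4, did not differ beyond its spread, with 33.9, 32.2 and 32.6 CPM against 33.6, 31.8 and 33.1 CPM (−0.00 ± 0.052, adjusted p = 0.967). Over all roles, 12 of the 19 calls held in every alternative, among them Hspa5, Hyou1, Dnajb9, Herpud1, Syvn1, Ern1 and Serpinh1.

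**Figure D2:**
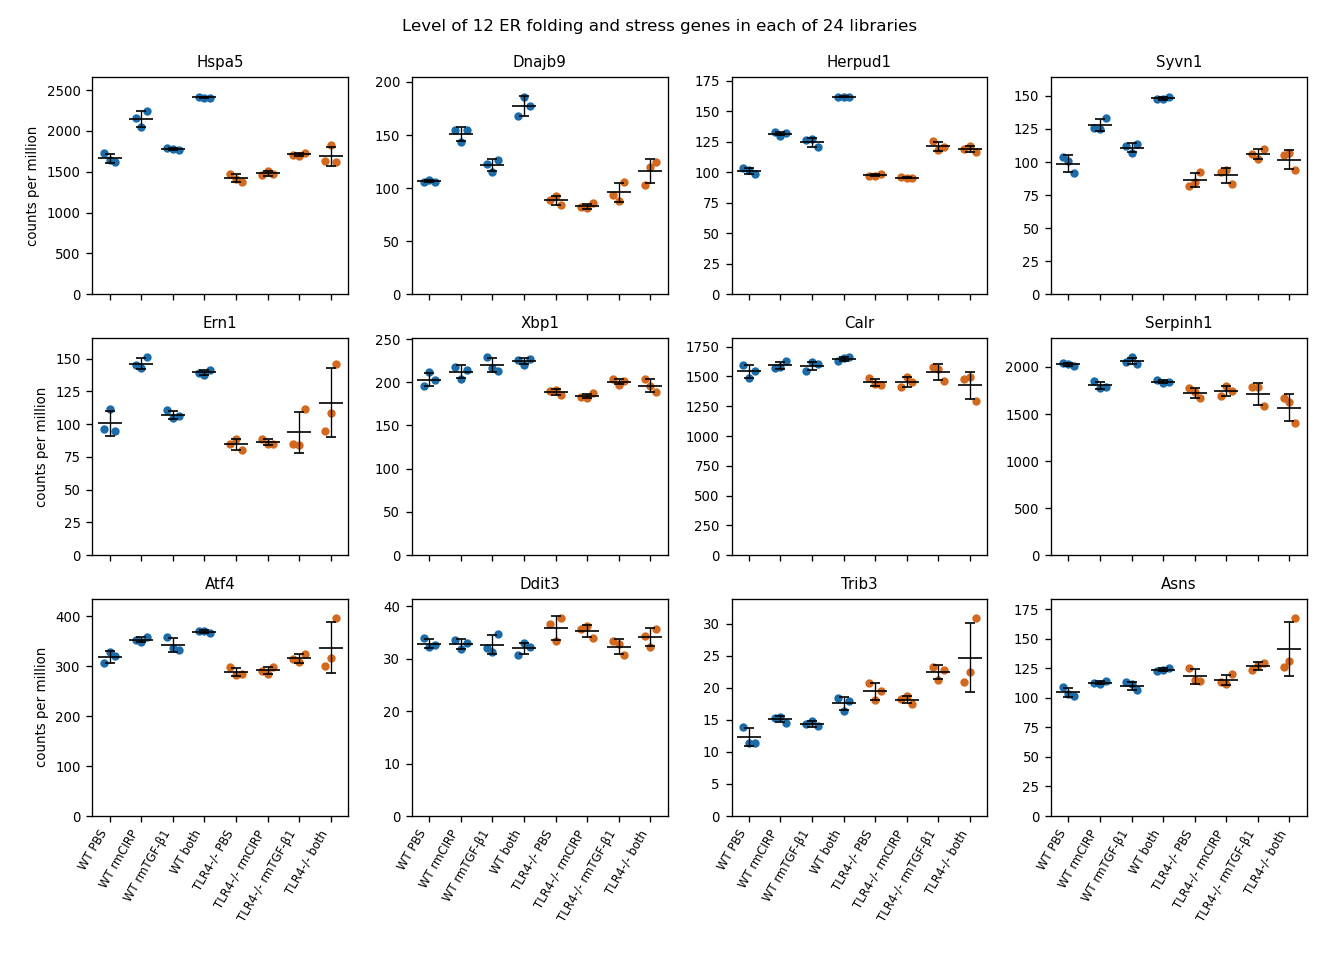
CPM (vertical axes, from 0) of 12 members in the 8 conditions, with each library as a point, the mean as a line and the SD as bars, WT in blue and labelled TLR4-/- in orange. In WT cells Hspa5 and Dnajb9 are higher with rmCIRP than without it, with or without rmTGF-β1. Ddit3 stays between 30.7 and 37.7 CPM in all 24 libraries.

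The same question was asked again in WT cells that received rmTGF-β1, in libraries that the first comparison did not use. With both proteins against rmTGF-β1 alone, 21 members were higher and 1 was lower, 61.1% against 42.2% of all genes (20.5% higher and 21.7% lower, edgeR adjusted p under 0.1), or 47.2% against 43% with scaling by library size alone. The called members were largely shared. Of the 19 members called with rmCIRP alone and the 22 called on top of rmTGF-β1, 17 were in both, 89.5% of the first list and 77.3% of the second, all 17 in the same direction, and 34 of the 36 members had the same sign. Over all genes, 43.9% were called with rmCIRP alone and 42.2% on top of rmTGF-β1, but their overlap was not counted. Whether this sharing is particular to the members was not tested. Dnajb9 read 123, 115 and 126 CPM with rmTGF-β1 and 168, 186 and 178 CPM with both, a log2 fold change of 0.55 ± 0.064 (adjusted p = 6e-07). Hspa5 went from 1794, 1783 and 1772 CPM to 2420, 2407 and 2407 CPM (0.44 ± 0.042, adjusted p = 3.24e-08), and Herpud1 from 127, 127 and 120 CPM to 162, 161 and 162 CPM (0.38 ± 0.03, adjusted p = 1.06e-09). None of these groups overlapped.

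Syvn1 (0.42 ± 0.055, edgeR adjusted p = 2.91e-06) and Ern1 (0.38 ± 0.11, adjusted p = 0.00855) completed the 5 largest rises, and Serpinh1 was the member that fell, by 0.16 on the log2 scale (adjusted p = 0.0173). Serpinh1 read 2056, 2101 and 2031 CPM with rmTGF-β1 and 1865, 1828 and 1843 CPM with both, without overlap. Xbp1 (0.03 ± 0.037, adjusted p = 0.537), Atf4 (0.11 ± 0.064, adjusted p = 0.193) and Ddit3 (−0.03 ± 0.052, adjusted p = 0.666) were not called. Asns was called at 0.16 ± 0.068 (adjusted p = 0.0641), a call lost when any of 5 libraries was left out, which were the second and the third given rmTGF-β1 and all 3 given both (adjusted p of 0.107 to 0.203), and with scaling by library size alone (0.112). The median was 0.11 over the secretory chaperones and 0.18 over the ATF4 arm. In these libraries 8 of 16 macrophage markers were lower and 4 higher with both proteins, and all 4 smooth muscle markers were lower. The difference between the rmCIRP responses with and without rmTGF-β1 was tested directly, and 0 members were called by edgeR or by DESeq2, with 0 members at an unadjusted p under 0.05 and 0.0492% of all genes called by edgeR. Sdf2l1 had the smallest p of the members (difference 0.13, unadjusted p = 0.0912).

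In the fit of all 24 libraries, fewer of these genes were called with rmTGF-β1 alone in WT cells, and upward only. Fewer of all genes were called as well. Against the same PBS libraries as in the first comparison, 13 members were higher and 0 lower, 36.1% against 12.4% of all genes (5.77% higher and 6.65% lower, edgeR adjusted p under 0.1). Over all genes, 938 were higher and 1081 lower, or 781 and 1400 with scaling by library size alone. Eif2ak3 read 32.1, 34.8 and 33.8 CPM with PBS and 42.7, 42.4 and 41.9 CPM with rmTGF-β1, without overlap (0.33 ± 0.044, adjusted p = 3.91e-05). Herpud1 rose by 0.30 ± 0.03 (adjusted p = 1.72e-06) to 127, 127 and 120 CPM. These 2 and Sec61a1, the pore of the translocon (0.16 ± 0.041, adjusted p = 0.0183), kept their calls in every alternative.

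The other 10 calls did not hold in every alternative. Chac1 had the largest log2 fold change (0.34 ± 0.11, edgeR adjusted p = 0.0599), and its call was lost without the second (0.139) or the third (0.172) WT PBS library or the first (0.189) or second (0.125) rmTGF-β1 library. Dnajb9 (0.19 ± 0.064, adjusted p = 0.0724) and Sec23a, a subunit of the COPII inner coat (0.18 ± 0.06, adjusted p = 0.0636), were each lost when any of 5 of the 6 libraries was left out. For Dnajb9 these were all but the second rmTGF-β1 library (adjusted p of 0.109 to 0.241) and for Sec23a all but the first WT PBS library (0.105 to 0.159). The number of members called went down to 3 without the third WT PBS library, to 5 without the first or second rmTGF-β1 library, to 7 without the third and to 8 without the second WT PBS library. It went up to 16 without the first WT PBS library. The number was higher still with only the libraries compared in the fit (given with the processing below), where 2983 of 15088 genes were called. Xbp1 was called at 0.11 ± 0.037 (adjusted p = 0.0574), a call lost without the first or the third library of the PBS group or the first or second of the rmTGF-β1 group (adjusted p of 0.125 to 0.266). Hspa5 was not called (0.10 ± 0.042, adjusted p = 0.158), nor were Atf4 (0.11 ± 0.064, adjusted p = 0.36), Ddit3 (−0.01 ± 0.052, adjusted p = 0.955), Asns (0.08 ± 0.068, adjusted p = 0.561) and Serpinh1 (0.02 ± 0.051, adjusted p = 0.853).

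The next comparison asked whether rmCIRP acted on these genes in cells labelled TLR4-/-. By edgeR, 0 of the 36 members and 0% of all genes were called, with 1 member at an unadjusted p under 0.05 (Sec61b, −0.09) and 1136 genes at that level. DESeq2 called 0 members and 33 genes. Log2 fold changes of the members lay between −0.12 (Chac1) and 0.07 (P4hb), with a median of 0.02 over the secretory chaperones and −0.03 over the ATF4 arm. Hspa5 read 1470, 1416 and 1379 CPM with PBS and 1454, 1510 and 1471 CPM with rmCIRP, ranges that overlapped (0.06 ± 0.042, adjusted p = 0.868). Dnajb9 read 89.2, 92.7 and 84.2 CPM with PBS and 82.1, 81.3 and 85.7 CPM with rmCIRP, also overlapping (−0.10 ± 0.065).

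The difference between the genotypes in the rmCIRP response was then tested itself. It was called for 16 members, 44.4% against 31.4% of all genes (edgeR adjusted p under 0.1). For 15 of them the log2 fold change in the labelled TLR4-/- cells was below that in WT, and for Serpinh1 it was above. With scaling by library size alone the split was 10 below and 2 above, and the members' share (33.3%) was then that of all genes (33.5%). The differences, labelled TLR4-/- minus WT, were −0.60 ± 0.091 for Dnajb9 (adjusted p = 4.41e-05), −0.51 ± 0.16 for Ern1 (adjusted p = 0.0195), −0.41 ± 0.042 for Herpud1 (adjusted p = 1.73e-07) and −0.31 ± 0.059 for Hspa5 (adjusted p = 0.000483). These 4, Hyou1, Sdf2l1, Creld2, Ssr1 and Syvn1 were called in every alternative. In the ATF4 arm the difference was −0.39 for Trib3 (adjusted p = 0.0565) and −0.39 for Chac1 (adjusted p = 0.0817). The call for Trib3 was lost without any of 5 libraries, the second or the third WT PBS, the first WT rmCIRP, the first labelled TLR4-/- PBS or the third labelled TLR4-/- rmCIRP library (adjusted p of 0.1 to 0.134). That for Chac1 was lost without any of 8 of the 12 libraries (0.1 to 0.238), the exceptions being the first WT PBS, the second and the third WT rmCIRP and the second labelled TLR4-/- PBS libraries. The Chac1 call was also lost with scaling by library size alone (0.111). Serpinh1 (0.19 ± 0.072, adjusted p = 0.0652) lost its call without any of 6 libraries, the first or second WT PBS, the second or the third WT rmCIRP, the third labelled TLR4-/- PBS or the second labelled TLR4-/- rmCIRP library (0.13 to 0.195). The macrophage markers summed to 10466 to 11755 CPM in the labelled TLR4-/- rmCIRP libraries, where 0 of 16 were called against PBS by edgeR, and to the lower sums given above in WT cells. Their part in the difference was not tested.

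**Figure D3:**
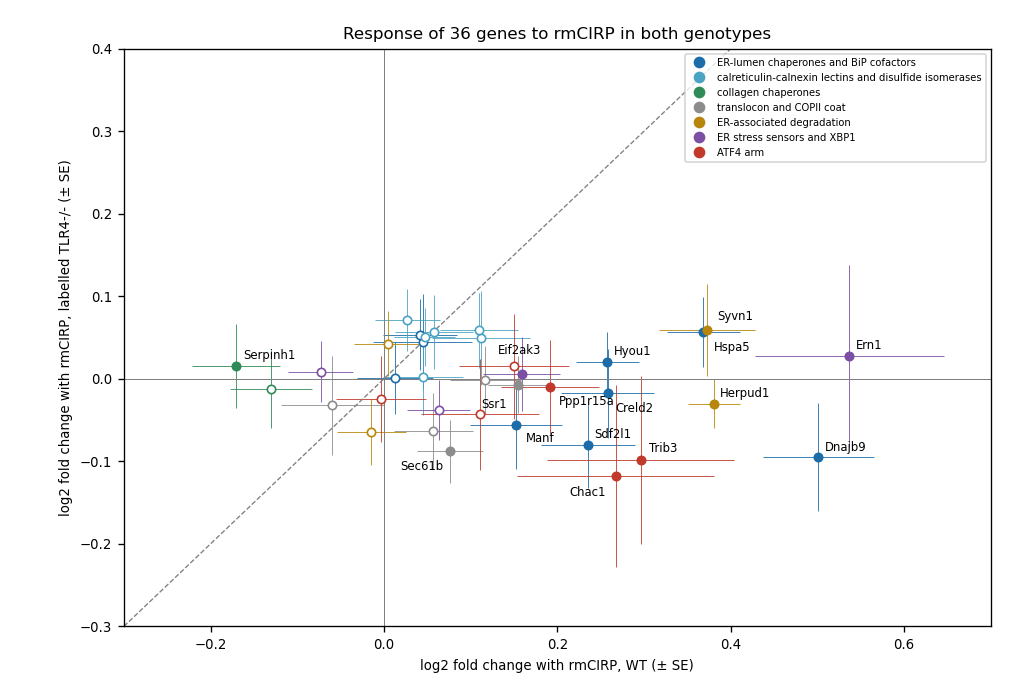
Log2 fold change with rmCIRP against PBS in WT cells (horizontal axis) and in labelled TLR4-/- cells (vertical axis) for the 36 members, with standard errors and 3 libraries per condition. Filled, named points are the 16 members whose response differed between the genotypes (adjusted p under 0.1), and the dashed line marks equal responses. Vertical values stay between −0.12 and 0.07, while horizontal values run from −0.17 to 0.54.

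With rmTGF-β1 the labelled TLR4-/- cells did respond. Against PBS, 15 members were higher and 2 lower, 47.2% against 23.9% of all genes (12.1% higher and 11.7% lower, edgeR adjusted p under 0.1). Over all genes, 1975 were higher and 1909 lower, or 1517 and 2481 with scaling by library size alone. Secretory chaperones made up 9 of the 15, with 4 of the 6 lectins and isomerases among them. Herpud1 read 97.0, 97.2 and 98.3 CPM with PBS and 126, 118 and 120 CPM with rmTGF-β1 (0.31 ± 0.03, adjusted p = 2.87e-07). Hspa5 rose to 1707, 1697 and 1729 CPM from the levels given above (0.27 ± 0.042, adjusted p = 0.000103), and Syvn1 rose by 0.30 ± 0.056 (adjusted p = 0.000657). Hspa5 and Herpud1 had no overlap between groups.

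Hyou1 (0.21 ± 0.036, edgeR adjusted p = 0.000274) and Ppp1r15a (0.19 ± 0.057, adjusted p = 0.0278) completed the 5 largest rises among called members, Ppp1r15a not being called without the first labelled TLR4-/- PBS library (0.131) or the third rmTGF-β1 library (0.105). Ddit3 fell by 0.15 ± 0.052 (adjusted p = 0.0464), from 36.6, 33.3 and 37.7 CPM to 33.5, 32.7 and 30.7 CPM, and the groups overlapped. Its call was lost without the first (0.127) or the third (0.187) PBS library or the third rmTGF-β1 library (0.217), and with only the libraries compared in the fit (0.111). Atf6 fell by 0.13 ± 0.037 (adjusted p = 0.0182), with 0.111 without the second PBS library. The genotype difference in the rmTGF-β1 response was called for 0 members by edgeR and by DESeq2, with 3 members at an unadjusted p under 0.05 (Hspa5 0.17, Eif2ak3 −0.16 and Sec24d −0.14) and 0.0861% of all genes called by edgeR.

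Adding rmCIRP to rmTGF-β1 in the labelled TLR4-/- cells gave 1 called member of 36, against 2.69% of all genes (edgeR adjusted p under 0.1). Of all genes 254 were higher and 183 lower, or 425 and 149 with scaling by library size alone. That member was Dnajb9, which read 93.9, 88.2 and 106 CPM with rmTGF-β1 and 103, 120 and 125 CPM with both, overlapping groups, with a log2 fold change of 0.27 ± 0.064 (adjusted p = 0.0726). Without the third combination library it was 0.22 (adjusted p = 0.313), and the call was also lost without the first (0.369) or second (0.217) rmTGF-β1 library and with only the libraries compared in the fit (0.679). Without that combination library 0 members and 1 of 16512 genes (0.00606%) were called, the median over the secretory chaperones moved from −0.04 to 0.01 and that over the ATF4 arm from 0.12 to −0.01. With the first or second combination library left out instead, 9 and 4 members were called, and without the third rmTGF-β1 library 7. Calls over all genes in these fits are not given here, so these counts do not single out the members. The third combination library held the highest levels of Atf4 (396 CPM against 300 and 315), Asns (167 against 126 and 131), Trib3 (30.9 against 20.9 and 22.5), Chac1 (22.9 against 18.4 and 16.6) and Ern1 (146 against 94.8 and 108) of its group, and the lowest of Serpinh1 (1404 against 1670 and 1630). It also held 42.9 CPM of endothelial markers, the highest of any library, 1022 CPM of smooth muscle markers, the lowest, and 19229 CPM of fibroblast markers, the lowest of its genotype. Whether those cells contribute to its ATF4-arm levels was not tested.

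**Figure D4:**
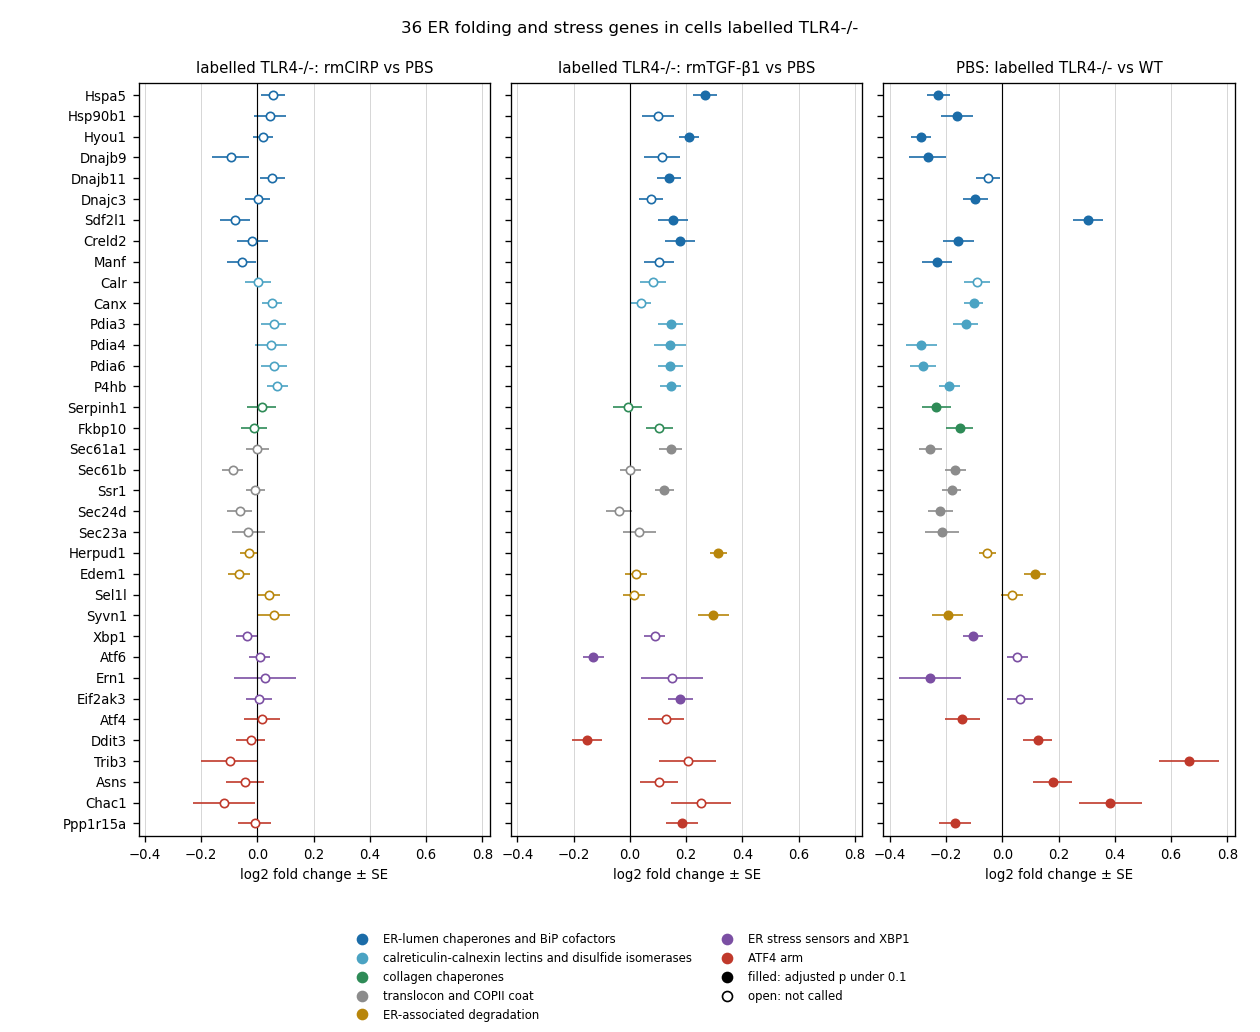
Log2 fold changes of the 36 members, grouped and coloured by role, for rmCIRP against PBS and rmTGF-β1 against PBS in labelled TLR4-/- cells, and for labelled TLR4-/- against WT cells in PBS, with standard errors and 3 libraries per condition. Filled points have an adjusted p under 0.1. No point is filled in the rmCIRP panel, and in the genotype panel most chaperones lie left of 0 while Trib3 (0.66), Chac1 (0.38) and Sdf2l1 (0.31) lie right of it.

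Without any added protein the genotypes already differed at most of these genes, with most secretory chaperones lower and Trib3 and Chac1 of the ATF4 arm higher. In labelled TLR4-/- PBS libraries 24 members were lower and 6 higher than in WT PBS libraries, 83.3% against 47.1% of all genes (23.2% higher and 24% lower, edgeR adjusted p under 0.1). Of the 17 secretory chaperones 14 were lower and 1 was higher (median log2 fold change −0.16), all 5 translocon and COPII genes were lower (median −0.21), and 4 of the 6 ATF4-arm genes were higher and 2 lower (median 0.15), against a median of −0.02 over all genes. Hyou1 read 366, 354 and 344 CPM in WT and 295, 293 and 283 CPM in the labelled TLR4-/- libraries, without overlap (−0.29 ± 0.036, adjusted p = 8.72e-07). Pdia4 (−0.29 ± 0.057), Pdia6 (−0.28 ± 0.046), Dnajb9 (−0.27 ± 0.065) and Sec61a1 (−0.26 ± 0.041) made up the rest of the 5 lowest log2 fold changes, and Hspa5 was lower too (−0.23 ± 0.042, adjusted p = 0.000143).

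Trib3 was the member with the largest difference upward. It read 13.9, 11.4 and 11.5 CPM in WT PBS libraries and 20.7, 18.1 and 19.5 CPM in labelled TLR4-/- PBS libraries, without overlap (0.66 ± 0.11, 1.58-fold, edgeR adjusted p = 2.4e-05). Chac1 (0.38 ± 0.11, adjusted p = 0.00898) and the BiP cofactor Sdf2l1 (0.31 ± 0.054, adjusted p = 7.78e-05) were higher too, as was Edem1, a lectin-like factor that extracts glycoproteins for degradation (0.12, adjusted p = 0.0225). Asns (0.18, adjusted p = 0.0403) lost its call without the third WT PBS library (0.14) or the first labelled TLR4-/- PBS library (0.146). Ddit3 (0.13, adjusted p = 0.0593) had overlapping groups and lost its call without the second or the third WT PBS library or the first or the third labelled TLR4-/- PBS library (0.112 to 0.162). The Ddit3 call was also lost without the filter on low counts (0.119). Within the same arm Ppp1r15a (−0.17, adjusted p = 0.0215) was lower, with 0.133 without the first labelled TLR4-/- PBS library. Atf4 mRNA itself was lower as well (−0.14, adjusted p = 0.0823), but the call was lost without any library but the first labelled TLR4-/- one (0.124 to 0.309). It was also lost with DESeq2 (0.105) and with a mean count of at least 10 (0.142). Of the 30 calls, 19 held in every alternative. Between the libraries compared, 15 of 16 macrophage markers were higher and 1 lower, 3 of 4 smooth muscle markers lower and 1 higher, 4 of 6 endothelial markers lower and 1 higher, and all 3 epithelial markers tested higher. Each genotype came from its own pool of lungs, so genotype, pool and cell makeup cannot be told apart.

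To place each library on both axes, the mean log2 CPM of the 17 secretory chaperones and of the 6 ATF4-arm genes was taken relative to the mean of the WT PBS libraries. These scores describe the libraries and carry no test. In WT cells both scores went up together, the chaperone score to 0.12 ± 0.027 (SD, n = 3) and the ATF4 score to 0.17 ± 0.028 for rmCIRP. For rmTGF-β1 they were 0.09 ± 0.0074 and 0.13 ± 0.017, and for the combination 0.25 ± 0.011 and 0.30 ± 0.011. In labelled TLR4-/- cells the chaperone score was −0.15 ± 0.018 with PBS, −0.14 ± 0.021 with rmCIRP and −0.03 ± 0.023 with rmTGF-β1, while the ATF4 score was 0.17 ± 0.078, 0.13 ± 0.0039 and 0.29 ± 0.037. The chaperone score minus the ATF4 score therefore lay between −0.07 and 0.03 in every WT library and between −0.83 and −0.24 in every labelled TLR4-/- library. The lowest value, −0.83, belonged to the third combination library, and without it the labelled TLR4-/- libraries lay between −0.38 and −0.24. Both scores are plain means over genes that did not all move the same way. With rmCIRP in WT cells, 7 of the 17 secretory chaperones were higher, 2 lower and 8 not called (median log2 fold change 0.06). With rmTGF-β1 in WT cells, 4 of the 17 secretory chaperones and 1 of the 6 ATF4-arm genes were called. Between the genotypes in PBS, 4 of the 6 were higher in labelled TLR4-/- cells, with Trib3 farthest at 0.66. The other 2, Atf4 and Ppp1r15a, were lower.

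**Figure D5:**
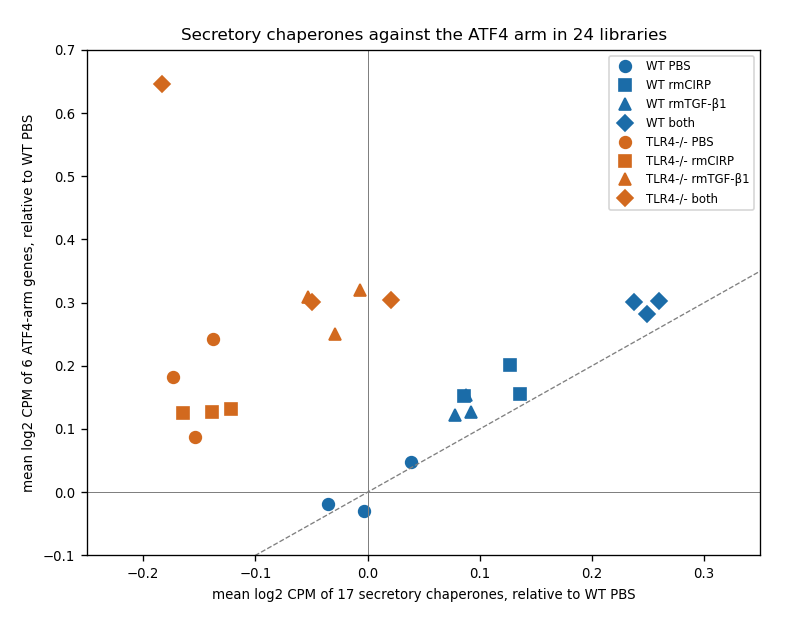
Mean log2 CPM of the 17 secretory chaperones (horizontal axis) and of the 6 ATF4-arm genes (vertical axis) in each of the 24 libraries, relative to the WT PBS mean, with the dashed line at equal scores. WT libraries lie along the line, and labelled TLR4-/- libraries lie above it, with the third combination library farthest from it at an ATF4 score of 0.65 and a chaperone score of −0.18. The ATF4 score averages genes that differed in direction between the genotypes in PBS.

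Across the 8 condition means, secretory chaperones varied together (median Pearson r over 136 pairs 0.86), ATF4-arm genes did so less (0.17 over 15 pairs), and the median over the 102 pairs between the lists was −0.12. Without the third combination library, an alternative chosen after the data were seen, these 3 medians were 0.87, 0.04 and 0.07. Within conditions, over the deviations of the 24 libraries from their condition means, they were 0.59, 0.63 and −0.39, and without that library 0.41, 0.0065 and 0.08. The correlation within the ATF4 arm and the negative sign between the lists thus rested on 1 library. The members most like Hspa5 across the condition means were Syvn1 (r = 0.995), Creld2 (0.987), Hyou1 (0.981), Dnajb9 (0.964) and Ppp1r15a (0.955), and Atf4 stood at 0.939, while the least like it were Atf6 (−0.80) and Ddit3 (−0.79). The points share libraries and their depth, and the 8 means are not independent samples, so these values are descriptions. Ppp1r15a and Atf4, both listed in the ATF4 arm, thus varied with Hspa5 across conditions, unlike Asns (0.061), Trib3 (−0.21) and Ddit3. Without the third combination library r was 0.977 for Ppp1r15a, 0.955 for Atf4, 0.144 for Asns, −0.195 for Trib3 and −0.783 for Ddit3.

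The members were also grouped by the promoter elements printed above. Of the 8 members with an ERSE, 4 were higher with rmCIRP in WT cells (median log2 fold change 0.08), 5 on top of rmTGF-β1 (median 0.13) and 7 lower in labelled TLR4-/- than in WT cells with PBS (median −0.16, edgeR adjusted p under 0.1). Of the 23 members with a window and no exact ERSE, 10 were higher and 1 lower with rmCIRP (median 0.11). On top of rmTGF-β1 13 of them were higher and 1 lower (median 0.11). Between the genotypes 13 were lower and 6 higher (median −0.13), while 0 of the 8 with an ERSE were higher. Of all genes, 19.8% were higher with rmCIRP and 20.5% on top of rmTGF-β1, and between the genotypes 24% were lower and 23.2% higher. Members with and without an exact ERSE thus had similar medians. Those without may still carry a related element, as Herpud1 and Dnajb11 do with ERSE-II, so this does not separate targets of ATF6 and XBP1 from other members. The 4 members with a CARE (Asns, Chac1, Herpud1 and Trib3) had medians of 0.28 with rmCIRP, 0.27 on top of rmTGF-β1 and 0.28 between the genotypes in PBS, where 3 of them were higher. The 27 without one had medians of 0.06, 0.10 and −0.16. With rmTGF-β1 against PBS in WT cells the medians were 0.26 with a CARE and 0.09 without. Herpud1, which carries both a CARE and an ERSE-II, rose with rmCIRP in WT cells, with or without rmTGF-β1, and with rmTGF-β1 in either genotype. Counts this small were not tested.

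Further genes of the same pathways were counted in the same way. With rmCIRP in WT cells, 15 of 39 other ATF4-regulated genes were higher and 4 lower (edgeR adjusted p under 0.1), 48.7% against 43.9% of all genes. Their largest rises exceeded those of any of the 36 members. Slc7a11, the cystine transporter, was at 2.70 ± 0.23 (adjusted p = 2.55e-09), the stress factor Atf3 at 1.45 ± 0.17 (adjusted p = 5.36e-07) and the cystathionine γ-lyase gene Cth at 0.87 ± 0.22 (adjusted p = 0.00333). Lower were Vldlr (−0.40) and Gdf15 (−0.33). Among 21 genes listed as other ER stress transducers 7 were higher and 3 lower, 47.6% of the list, with a median of 0.05. The largest rise there was that of Eif2ak2 (2.16 ± 0.13, adjusted p = 5.84e-12). It is the double-stranded RNA kinase, listed because it also phosphorylates eIF2α, and its rise is no measure of ER stress.

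The other secretory lists moved less far. Of 21 further folding genes 6 were higher and 2 lower, with the oxidase Ero1l at 0.28 (edgeR adjusted p = 0.000477), Fkbp11 at 0.25 and Selenom at −0.22. Of 23 further translocon, signal peptidase and glycosylation genes 10 were higher and 1 was lower, with Ssr2 at 0.23. Of 25 further COPII and export genes 9 were higher and 3 lower, with Sec23b at 0.26 and Ergic1 at −0.28. Of 19 further degradation genes 9 were higher and 1 was lower, with Edem2 at 0.19. These are 38.1, 47.8, 48 and 52.6% of the lists, near the 43.9% of all genes, and the medians of the 4 lists were 0.04, 0.04, 0.04 and 0.06. In labelled TLR4-/- cells rmCIRP gave 0 calls in all 6 lists by edgeR, and the genotype difference in the response was called for 14 of the 39 ATF4-regulated genes (35.9% against 31.4% of all genes), 13 of them with the lower log2 fold change in labelled TLR4-/- cells, among them Slc7a11 (−2.72, adjusted p = 1.12e-06) and Atf3 (−1.42, adjusted p = 0.000105).

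With rmTGF-β1 against PBS in WT cells, 4 of the 39 ATF4-regulated genes were higher and 0 lower, led by Fgf21 (1.99 ± 0.53, edgeR adjusted p = 0.0393), and 9 of 25 COPII and export genes were higher and 0 lower. These are 10.3% and 36% of the lists, against 12.4% of all genes. Creb3l2, a transmembrane factor of the secretory pathway, was at 0.41 ± 0.042 in WT cells (adjusted p = 2.28e-06) and at 0.59 ± 0.042 in labelled TLR4-/- cells (adjusted p = 5.52e-09). Between the genotypes in PBS, 17 of 39 ATF4-regulated genes were higher and 5 lower in labelled TLR4-/- cells, with Atf3 at 0.97 (adjusted p = 9.45e-05) and Gdf15 at 0.64 (adjusted p = 2.82e-05). In the same comparison 14 of 21 further folding genes were lower and 6 higher, 16 of 23 translocon and glycosylation genes were lower and 1 was higher, and 13 of 25 export genes were lower and 4 higher. Called shares were 56.4% of the ATF4-regulated, 95.2% of the folding, 73.9% of the translocon and 68% of the export genes, against 47.1% of all genes. Selenos (−0.33) and Wfs1 (−0.58), an ER membrane protein, were among the lower genes, and the oxidase Ero1lb (0.53, adjusted p = 5.94e-08) among the higher ones.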

How the data were processed

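The deposited files held raw counts per gene made by the authors with FastQC, STAR2 alignment to the mouse GENCODE genome and HTSeq, from TruSeq Stranded Total RNA libraries run on an Illumina NextSeq. NCBIM37 stands in the submitters' processing notes. The strand setting and annotation release are not given in the sources used here. The 5 tally lines per file (14.5 to 16.1% of reads) were left out.

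Counts from all 24 libraries were fitted together in edgeR 4.0.16 (R 4.3.3, limma 3.58.1), with filterByExpr, TMM factors, 1 mean per condition and the quasi-likelihood test. The common biological coefficient of variation was 0.0571. Log2 CPM used a prior count of 2, p-values were adjusted by Benjamini-Hochberg over 16258 genes, and genes under 0.1 were called. Members and lists were chosen with earlier results of these data known. Named with values were, in each comparison, up to 5 called members in each direction with the largest changes, Hspa5, Xbp1, Atf4, Ddit3, Asns and Serpinh1 in the WT treatment comparisons, and up to 3 called genes in each direction of each further list. Members named outside that rule were chosen after their values were seen. Exon lengths came from GENCODE M21 (GRCm38). Alternatives were DESeq2 1.42.0, RLE factors, library size only, no filter, a mean count of at least 10 and the replicate number as a block. Further alternatives were only the libraries compared, and each library of the conditions compared left out. Replicate numbers were not treated as pairs in the main fit, and the labels do not say whether they are. Scripts were tested on simulated data.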

Additional observations from a re-analysis of the deposited data

Results flagged for a closer look

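The response to rmCIRP differed between WT and labelled TLR4-/- cells for 16 of the 36 members by the test of the difference itself. Calls were made at a Benjamini-Hochberg adjusted p under 0.1 (edgeR quasi-likelihood test). The share was 44.4% of members against 31.4% of all genes, or 33.3% against 33.5% with scaling by library size alone. Of the 16 calls, 9 held in every alternative. The other 7 (Manf, Serpinh1, Sec61b, Eif2ak3, Trib3, Chac1 and Ppp1r15a) were lost in some. As log2 fold changes, labelled TLR4-/- minus WT, the differences were −0.31 for Hspa5, −0.24 for Hyou1, −0.60 for Dnajb9, −0.32 for Sdf2l1, −0.28 for Creld2 and −0.21 for Manf among the ER-lumen chaperones, and 0.19 for Serpinh1. For the translocon they were −0.16 for Sec61b and −0.16 for Ssr1. Degradation and sensor genes gave −0.41 for Herpud1, −0.31 for Syvn1, −0.51 for Ern1 and −0.15 for Eif2ak3. ATF4-arm genes gave −0.39 for Trib3, −0.39 for Chac1 and −0.20 for Ppp1r15a.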

How the results depend on the processing

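Calls were recomputed for 118 pairs of a called member and a comparison, and 0 of 1630 values changed sign. Calls were lost in 21 of the 118 with scaling by library size only, 11 without the filter, 3 with DESeq2, 2 with a mean count of at least 10, 2 with only the libraries compared, 1 with RLE factors, and in 160 of 804 with 1 library left out. For rmTGF-β1 against PBS in WT cells, 21 members and 2983 of 15088 genes were called with only the libraries compared. With 1 library left out, 3 to 16 members were called. For both proteins against rmTGF-β1 in labelled TLR4-/- cells, where 1 was called, the count was 3 with DESeq2 and 6 without the filter. It was 0 with only the libraries compared and 0 to 9 with 1 library left out. Calls over all genes moved too, with 902 of 10356 by DESeq2, 1580 of 34285 without the filter and 0 of 15248 with only the libraries compared. There the median log2 fold change ranged from −0.10 to 0.01 over the secretory chaperones and from −0.0087 to 0.20 over the ATF4 arm. With 1 library left out, the chaperone median for rmTGF-β1 in WT cells ranged from 0.053 to 0.11. Members called ranged from 14 to 20 for rmCIRP in WT cells, 16 to 20 on top of rmTGF-β1, 14 to 17 for rmTGF-β1 in labelled TLR4-/- cells, 23 to 29 between genotypes and 12 to 17 for the genotype difference. Trib3, Chac1 and Ern1 had the widest standard errors for rmCIRP in WT cells (0.11). The causes were not tested.

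Libraries of the same replicate number deviated little in common, with a mean correlation of 0.012 over 84 pairs (from −0.12 to 0.37). For different numbers it was −0.0060, and 12 of 24 libraries correlated best with their own number. These values cannot settle whether the libraries were paired, and the labels do not say. With the replicate block, 2 members were called for both proteins against rmTGF-β1 in labelled TLR4-/- cells, 19 for rmCIRP in WT cells and 30 between genotypes, and 1 of the 118 calls was lost.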
